A study of Mus musculus with 24 samples.

Results

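Expression of 10 imprinted genes, H19, Igf2, Meg3, Rian, Dlk1, Peg3, Snrpn, Mest, Peg10 and Cdkn1c, was followed in 2 clones of mouse embryonic stem cells (ESCs). They were taken by symbol from the 26264 genes in the count table, with earlier results of these data known. The question was whether an imprinted gene had been gained or lost between the clones, and then how these genes respond to retinoic acid (RA) and to indole-3-acetic acid (IAA). In BAP1-AID ESCs an HA-AID tag was placed at the C terminus of BAP1, the deubiquitinase of H2AK119ub1, and in UTX-AID ESCs at the N terminus of UTX (gene Kdm6a), an H3K27 demethylase. Both lines stably overexpress TIR1, the plant adaptor through which the auxin IAA brings an AID-tagged protein to the proteasome, and both were grown in serum with leukemia inhibitory factor (LIF). RA was given in medium lacking LIF for 0, 3 or 6 h, to ESCs of each line that had received IAA (+IAA) or had not (−IAA). No group had 3 or 6 h in that medium without RA. RA, the lack of LIF and time therefore cannot be told apart, and a response to RA below stands for them together. IAA, dissolved in ethanol, was added 2 h before RA, so the time since its addition grew with the hours of RA. No untagged ESCs with IAA were analysed here, so loss of the tagged protein, IAA itself and its solvent cannot be told apart. With 2 replicates in each of the 12 groups there were 12 libraries per line and 24 in all. Each line is 1 clone, so the clone, the tagged gene and any difference in handling cannot be told apart, and no untagged parental line was analysed here. The labels do not say whether replicates were separate cultures, so p-values measure the spread between these libraries, which may be technical.

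Imprinted genes are transcribed mainly or only from the copy inherited from 1 parent. The choice is set in the germ line by DNA methylation at an imprinting control region, which is kept after fertilization by ZFP57, TRIM28 and DNMT1 and can be lost or gained when ESCs are cultured or cloned. Neighbouring genes often share a control region, with a noncoding RNA expressed from the maternal or the paternal copy and protein-coding genes from the other. In this set H19, Meg3, Rian and Cdkn1c are maternally expressed, and Igf2, Dlk1, Peg3, Snrpn, Mest and Peg10 are paternally expressed. The counts do not separate the parental copies, so a level is the sum of both. In bulk cells, fewer cells that express a gene and less RNA per cell cannot be told apart.

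Promoter sequences are shown for 4 genes that carry the results below, 1 with a clone difference (Snrpn), 1 with a response to RA (Mest) and a neighbouring pair that moved with RA and with IAA (Meg3 and Rian). Each is the RefSeq window of 300 bases from 250 before to 50 after a transcription start, on build GRCm38.p6, 5′ to 3′ on the gene's strand. Capitals mark TGCCGC, or GCGGCA where it lies on the other strand, the hexamer that ZFP57 is known to bind when its CpG is methylated. Where a gene has several starts, that with the most CpG is shown.
Snrpn, chr7:60005150-60005449, minus strand: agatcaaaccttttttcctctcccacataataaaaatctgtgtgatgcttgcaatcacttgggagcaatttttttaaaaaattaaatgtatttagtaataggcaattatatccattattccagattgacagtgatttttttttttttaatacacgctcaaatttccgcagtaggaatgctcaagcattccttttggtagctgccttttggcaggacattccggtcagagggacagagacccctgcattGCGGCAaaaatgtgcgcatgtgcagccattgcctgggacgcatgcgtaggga
Mest, chr6:30737800-30738099, plus strand: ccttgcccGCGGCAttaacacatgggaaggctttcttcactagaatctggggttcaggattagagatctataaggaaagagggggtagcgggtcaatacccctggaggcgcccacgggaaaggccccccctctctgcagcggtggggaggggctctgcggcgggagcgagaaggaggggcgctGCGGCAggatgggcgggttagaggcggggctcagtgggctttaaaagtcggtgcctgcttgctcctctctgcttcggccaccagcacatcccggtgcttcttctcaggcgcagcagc
Meg3, chr12:109540746-109541045, plus strand: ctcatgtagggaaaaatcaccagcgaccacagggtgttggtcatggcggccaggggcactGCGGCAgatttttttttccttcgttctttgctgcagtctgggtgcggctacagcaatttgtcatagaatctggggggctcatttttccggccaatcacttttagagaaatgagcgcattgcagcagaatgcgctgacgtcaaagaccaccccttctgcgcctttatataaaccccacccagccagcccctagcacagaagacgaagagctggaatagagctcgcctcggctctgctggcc
Rian, chr12:109603695-109603994, plus strand: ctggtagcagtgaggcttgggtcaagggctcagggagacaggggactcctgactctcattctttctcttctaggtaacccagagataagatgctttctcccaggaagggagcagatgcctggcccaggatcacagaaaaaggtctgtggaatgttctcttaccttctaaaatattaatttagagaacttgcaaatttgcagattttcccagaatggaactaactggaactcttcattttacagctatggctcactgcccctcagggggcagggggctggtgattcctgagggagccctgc

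The hexamer, in each case as GCGGCA, occurs 1 time in the Snrpn window, 2 times in the Mest window, 1 time in the Meg3 window and 0 times in the Rian window. On either strand it is held by 11.6% of the 32851 promoter windows in the RefSeq table. The Mest window has 17 CpG, the Meg3 window 13, the Snrpn window 7 and the Rian window 0, against a median of 7 over all windows. RefSeq windows were matched for 7 of the 10 genes, and H19, Peg10 and Cdkn1c had no entry. These 7 genes had 16 windows, and Snrpn, Mest, Meg3 and Igf2 held the hexamer in at least 1 of theirs, whereas Dlk1, Peg3 and Rian did not. The windows shown were picked by result and by CpG, so their share cannot be set against that of all windows. A match in these letters is not a binding site by itself, and DNA methylation was not measured.

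Totals of estimated counts were 48392851 to 52766527 per library in BAP1-AID and 42018795 to 54034789 in UTX-AID, so 3 counts, taken as the detection limit, correspond to 0.0555 to 0.0714 CPM, the counts scaled to a library of fixed size. All 10 genes were detected in all 24 libraries. The ESC markers (8 genes, among them Pou5f1, Nanog and Sox2) summed to 3525 to 4399 CPM in every library, but 7 of the 8 passed between the clones, 3 higher and 4 lower in BAP1-AID, against 74.9% of all genes. Median CPM of Nanog was 138 (BAP1-AID) and 394 (UTX-AID), of Zfp42 162 and 492, of Sox2 464 and 245 and of Pou5f1 1294 and 865. The summed fibroblast markers (8 genes, 3 with a mean of at least 1 CPM, Postn at 0 throughout) were 9.87 to 14.4 CPM in BAP1-AID and 4.29 to 8.73 CPM in UTX-AID. Most of that gap was Dcn, with medians of 6.49 and 1.08 CPM, whereas Thy1 had 2.98 and 2.73 and Col1a1 0.214 and 0.308, and 1 of the 6 tested passed. The summed neural markers (6 genes, 4 with a mean of at least 1 CPM) stood higher in BAP1-AID as well, at 120 to 140 against 65.7 to 97.2 CPM. Of the 6 tested, 5 passed, all higher. The 8 extraembryonic endoderm markers summed to 4.37 to 8.99 against 2.24 to 5.61 CPM, and 4 of the 8 passed, all higher. The 8 trophoblast markers summed to 14.3 to 22.9 against 5.32 to 16.6 CPM, with Prl3d1 at 0 in both lines. Only 2 of these reached a mean of 1 CPM, Eomes (medians 10.2 and 4.39) and Tfap2c (10.4 and 5.25), and Hand1 went the other way (0.0578 and 0.236). Of the 6 tested, 3 passed as higher and 1 as lower. The part of these markers in the clone differences below was not tested. Bap1 mRNA ranged from 93.3 to 105 CPM in BAP1-AID against 67.9 to 87.0 CPM in UTX-AID, and Kdm6a mRNA from 59.5 to 104 against 93.5 to 125 CPM. The degron acts on the protein, so these mRNA levels do not check for degradation.

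The 10 genes spanned a wide range of levels. Divided by the length of the canonical transcript, Mest, a hydrolase-like protein of mesoderm, was highest, with median levels of 145 (BAP1-AID) and 196 (UTX-AID) CPM per kb. Meg3 and Rian, noncoding RNAs of the Dlk1-Dio3 domain, followed at 116 and 116 CPM per kb (BAP1-AID) and at 89.0 and 91.0 (UTX-AID). Snrpn, a spliceosomal protein, had 73.8 CPM per kb in BAP1-AID and 32.9 in UTX-AID. Peg10, a retrotransposon-derived protein needed in the placenta, had 32.4 and 50.5, so Snrpn and Peg10 exchanged places between the clones, and in each clone the ranges of the 2 genes did not overlap. Peg3, a zinc finger protein, stood at 16.9 and 14.3 CPM per kb. Cdkn1c, an inhibitor of cyclin-dependent kinases, and H19, a noncoding RNA and the precursor of a microRNA, had 4.05 and 2.81 CPM per kb (BAP1-AID) against 3.15 and 3.45 (UTX-AID), with overlapping ranges in both clones. Dlk1, a transmembrane Notch-family ligand, was near the lower end at 0.763 and 0.358 CPM per kb, and Igf2, a growth factor, was lowest at 0.171 and 0.159. The ranges of Mest and Meg3 overlapped in BAP1-AID but lay just apart in UTX-AID, and those of Meg3 and Rian overlapped in both. The order between genes depends on the transcript chosen for the length.

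**Figure D1:**
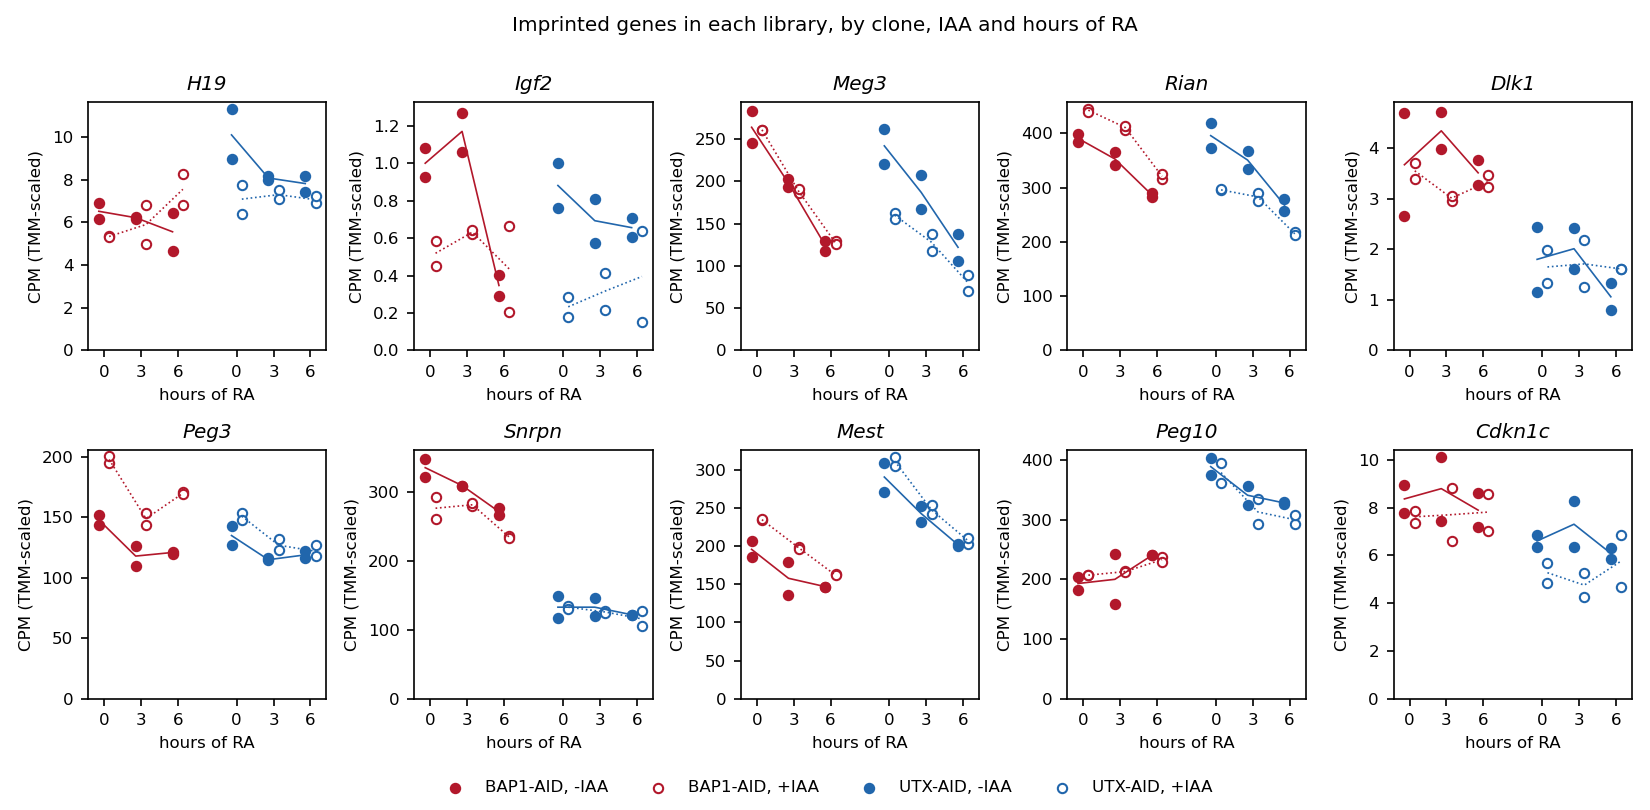
CPM of each imprinted gene (y axes, from 0) in each of the 24 libraries against hours of RA (x axes), with BAP1-AID in red on the left and UTX-AID in blue on the right of each panel, filled points without IAA, open points with IAA, and lines through the means of 2 replicates. All BAP1-AID points lie above all UTX-AID points for Snrpn and Dlk1 and below them for Peg10, and Meg3 falls with RA in all 4 series.

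No imprinted gene of the set was switched on in 1 clone and silent in the other. Snrpn and Dlk1 were each more than 2-fold higher in BAP1-AID than in UTX-AID and were the only members called, that is, with an adjusted p under 0.05 and a log2 fold change beyond 1 in either direction. Peg10, Mest and H19 were lower in BAP1-AID by smaller steps. With edgeR's quasi-likelihood test and Benjamini-Hochberg adjustment over all genes, 9 of the 10 passed at an adjusted p under 0.05, where 74.9% of the 16816 genes tested did. Of these, 6 were higher in BAP1-AID, against 36.3% of all genes, and 3 were lower, against 38.6%. The 2 called compare with 26.5% of all genes, and the 3 whose clones did not overlap in any library (Snrpn, Dlk1 and Peg10) with 33.6%. The median log2 fold change was 0.33 over the members and −0.067 over all genes. These values average −IAA and +IAA ESCs over all times of RA. In −IAA ESCs alone 3 members were higher and 3 lower, beside 5665 and 5652 of the 16816 genes. At 0 h without IAA 2 were higher and 3 lower, beside 4571 and 4277. In +IAA ESCs alone 6 were higher and 2 lower, beside 5556 and 5969. The tilt towards higher members was thus not seen without IAA, with fewer libraries.

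Snrpn lies in the domain deleted in Prader-Willi and Angelman syndromes in humans, on mouse chromosome 7 (7:59630427-59820763, mm39, minus strand). It ranged from 234 to 349 CPM (median 282) in the 12 BAP1-AID libraries and from 105 to 149 CPM (median 126) in the 12 UTX-AID libraries. The lowest BAP1-AID library was above the highest UTX-AID library. Snrpn was higher with a log2 fold change of BAP1-AID over UTX-AID of 1.16 ± 0.0416 (SE), or 2.23-fold (edgeR adjusted p = 2.93e-17). With a correction of each library for the GC content and length of transcripts it was 2.2 (edgeR adjusted p = 4.79e-22). Snrpn overlaps Snurf, its upstream reading frame on the same strand, so counts of the 2 could be shared. The other paternally expressed genes of the domain were also higher in BAP1-AID: Snurf by 1.52, Magel2, a regulator of ubiquitin ligases, by 1.25, Peg12 by 0.82, Ndn, a growth suppressor of neurons, by 0.77 and Mkrn3 by 0.19 on the log2 scale. The adjusted p-values from edgeR were 1.01e-09 for Snurf and 0.0163 for Mkrn3, and with the GC and length correction Mkrn3 no longer passed (0.069, edgeR adjusted p = 0.368). Ube3a, a ubiquitin ligase that is maternally expressed in neurons and from both copies elsewhere, was the exception and was lower in BAP1-AID. Its CPM ranged from 70.8 to 198 against 328 to 452, a log2 fold change of −1.74 that was −0.42 after the correction. Before the correction 6 of 7 genes of the domain were higher and 1 was lower, beside 36.3% and 38.6% of all genes.

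Dlk1 (12:109418749-109429262, mm39, plus strand) ranged from 2.66 to 4.71 CPM (median 3.42) in BAP1-AID and from 0.795 to 2.44 CPM (median 1.61) in UTX-AID. The clones again did not overlap, at counts of 138 to 238 and 36 to 120 per library. Dlk1 was higher by 1.14 ± 0.146 (SE; edgeR adjusted p = 2.48e-07), and with the GC and length correction it was 0.73 (edgeR adjusted p = 0.000111), which is short of the 2-fold limit. Meg3 and Rian, on the maternal copy of the same domain, were higher by much less, at 0.36 ± 0.0508 and 0.30 ± 0.0275 (SE) on the log2 scale. Their clone difference varied with IAA, by the interaction test given with the IAA results. In −IAA ESCs alone Meg3 differed by 0.076 (edgeR adjusted p = 0.364) and Rian by 0.031 (edgeR adjusted p = 0.507), and in +IAA ESCs alone by 0.65 and 0.56. At 0 h without IAA, Rian differed by −0.018 (edgeR adjusted p = 0.860). Mirg, a microRNA host transcript downstream of Rian, was higher in BAP1-AID by 0.99 and Rtl1, a retrotransposon-derived gene of the paternal copy, by 0.95. The file does not state a strand setting, and Rtl1 lies on the opposite strand within Rian, so reads of the 2 may not be separated. Dio3, a thyroid hormone deiodinase, was between 0 and 0.662 CPM and did not pass (edgeR adjusted p = 0.344). In this domain 5 of 6 genes were higher in BAP1-AID and 0 lower, beside the same shares of all genes.

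Peg10 (6:4747306-4760517, mm39, plus strand) was the member with the clearest lower level in BAP1-AID, with 158 to 243 CPM (median 213) against 292 to 404 CPM (median 332) in UTX-AID. The ranges did not overlap. On the log2 scale the difference was −0.67 ± 0.0492 (SE; edgeR adjusted p = 1.80e-11), and at 0 h without IAA it was −1.01 (edgeR adjusted p = 1.96e-07). Sgce, the head-to-head neighbour of Peg10 and also paternally expressed, was lower in the same clone, at 0.585 to 1.94 against 2.01 to 3.62 CPM (log2 fold change −1.18, and −0.66 after the correction). Ppp1r9a, a neuronal actin-binding protein, was lower too, with a log2 fold change of −1.14. Calcr, the calcitonin receptor, went the other way at 1.99. Asb4 was at 0 in 6 BAP1-AID and 7 UTX-AID libraries and is given no fold.

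Mest (6:30723546-30752058, mm39, plus strand) ranged from 136 to 236 CPM (median 183) in BAP1-AID and from 201 to 317 CPM (median 248) in UTX-AID. The ranges overlapped, and the log2 fold change was −0.45 ± 0.0376 (SE; edgeR adjusted p = 1.59e-10). Klf14, a transcription factor of the same domain, reached at most 0.473 CPM and did not pass. Peg3 (7:6706882-6733468, mm39, minus strand) ranged from 110 to 201 CPM (median 148) against 115 to 154 CPM (median 125). Its log2 fold change of 0.21 ± 0.0303 (SE; edgeR adjusted p = 1.26e-06) was 0.061 in −IAA ESCs alone (edgeR adjusted p = 0.220) and 0.36 in +IAA ESCs alone. Usp29, which shares the Peg3 promoter region, was lower at −0.37, a value that was −0.010 after the GC and length correction. Zim1, a maternally expressed zinc finger gene of the Peg3 domain, showed the largest clone difference among all imprinted genes described here. It ranged from 0 to 0.468 CPM in BAP1-AID, with 2 libraries at 0, and from 2.28 to 4.16 CPM in UTX-AID (log2 fold change −4.00 ± 0.320, SE; edgeR adjusted p = 8.77e-11).

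H19 (7:142129262-142133957, mm39, minus strand) ranged from 4.66 to 8.28 CPM (median 6.22) in BAP1-AID and from 6.41 to 11.3 CPM (median 7.63) in UTX-AID. Its difference on the log2 scale was −0.35 ± 0.0732 (SE; edgeR adjusted p = 0.000149), and in +IAA ESCs alone it was −0.21 (edgeR adjusted p = 0.0810). Igf2 (7:142204503-142220694, mm39, minus strand), which shares enhancers with H19, was at 8 to 66 counts per library. It ranged from 0.203 to 1.27 CPM in BAP1-AID and from 0.151 to 1.00 CPM in UTX-AID and was the 1 member that did not pass (0.39 ± 0.270, SE; edgeR adjusted p = 0.204, 95% interval −0.18 to 0.95). Ins2, the insulin gene next to Igf2, was at 0 in all libraries, and Igf2os, antisense to Igf2, reached at most 0.197 CPM. Cdkn1c (7:143012069-143014806, mm39, minus strand) ranged from 6.59 to 10.1 CPM (median 7.81) in BAP1-AID and from 4.24 to 8.26 CPM (median 6.08) in UTX-AID, a log2 fold change of 0.44 ± 0.0848 (SE; edgeR adjusted p = 6.48e-05). In −IAA ESCs at 0 h alone Cdkn1c did not pass (edgeR adjusted p = 0.179). Kcnq1ot1, the paternal noncoding RNA that silences Cdkn1c in cis, was 6.00 to 19 CPM in BAP1-AID and 46.6 to 68.6 CPM in UTX-AID. Its log2 fold change was −2.63 ± 0.0567 (SE; edgeR adjusted p = 3.42e-21). Of the other maternally expressed genes of that domain, Ascl2, a trophoblast transcription factor, was higher in BAP1-AID by 1.27. Phlda2, a brake on placental growth, was higher by 0.25 and Osbpl5 by 0.78. Slc22a18 went the other way and did not pass (−0.90, edgeR adjusted p = 0.0849). Ascl2 overlapped, at 0.234 to 1.94 against 0 to 0.534 CPM. Ascl2 missed the threshold in 2 of 9 alternatives and Osbpl5 in 4 of 9. In this domain 4 of 6 tested genes were higher and 1 was lower, beside 36.3% and 38.6% of all genes. After the GC and length correction Phlda2 no longer passed (0.11, edgeR adjusted p = 0.163).

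The correction for GC content and length also moved other members of the set. After it, the log2 fold change of H19 was −0.60, of Meg3 0.16, of Rian 0.48 and of Cdkn1c 0.20, each with the same direction and an edgeR adjusted p under 0.05. Across all genes Spearman's rho of the clone difference with GC content was 0.285.

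**Figure D2:**
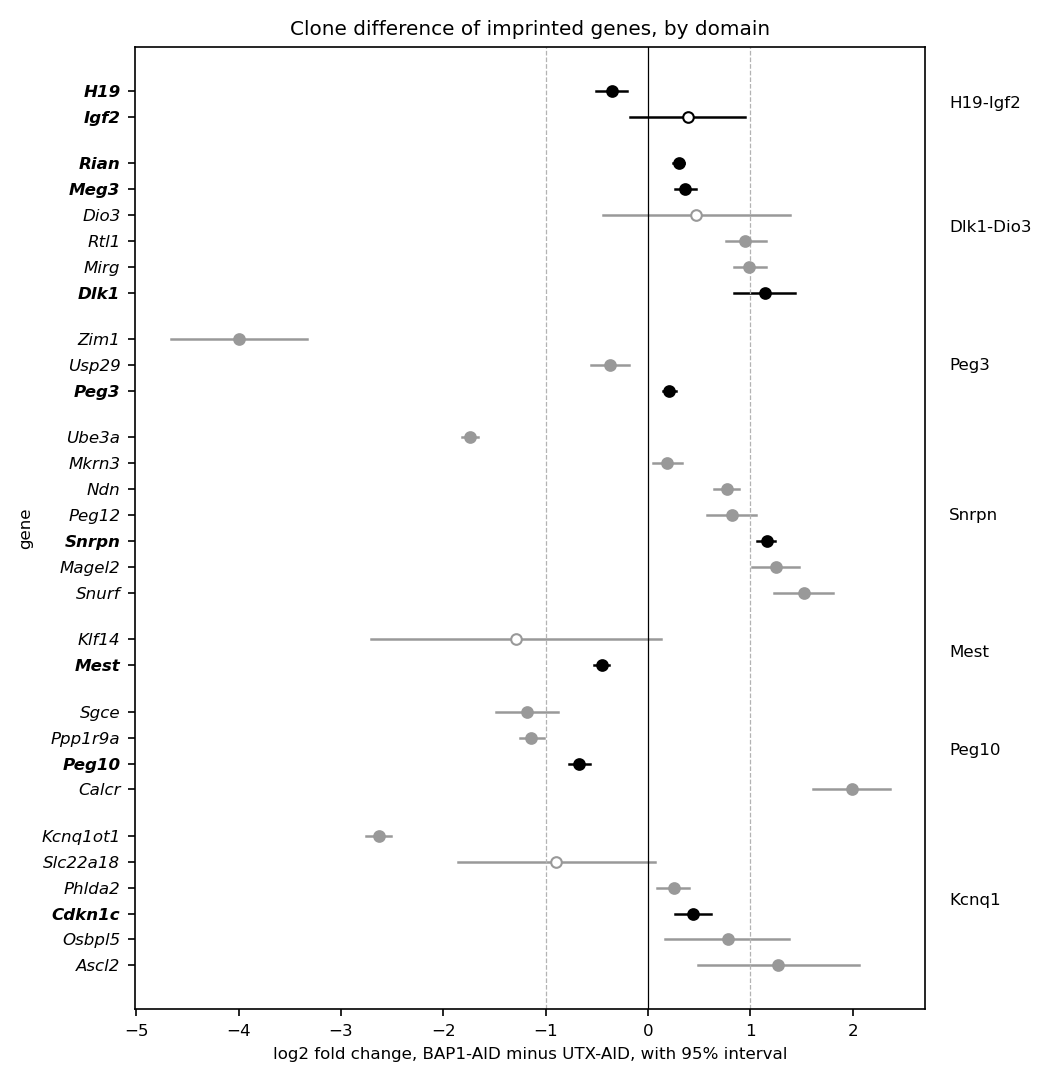
Log2 fold change of BAP1-AID over UTX-AID (x axis) with its 95% interval for the imprinted genes (y axis), grouped by domain as named on the right, with the 10 genes of the set in black and bold and their domain neighbours in grey. Filled points passed at an adjusted p under 0.05, and dashed lines mark a log2 fold change of 1 in each direction. The Snrpn and Dlk1-Dio3 domains lie mostly to the right, and Zim1 and Kcnq1ot1 lie farthest to the left.

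Several members of the set were lower after RA in medium lacking LIF, and none passed as higher, except Peg10 in BAP1-AID under alternatives given with that gene. Compared with 0 h, 5 of the 10 genes fell after 6 h in BAP1-AID (Meg3, Rian, Peg3, Snrpn and Mest) and 5 in UTX-AID (Meg3, Rian, Peg3, Mest and Peg10). Of all genes tested, 24% passed in either direction in BAP1-AID, compared with 12.4% in UTX-AID, and 9.67% and 5.52% were lower. The share of higher genes was 14.4% and 6.92%. After the GC and length correction 13.9% and 7.13% of all genes were lower and 11.1% and 6.76% higher. After 3 h, 3 members fell in BAP1-AID (Meg3, Peg3 and Mest) and 3 in UTX-AID (Peg3, Mest and Peg10), where 11.2% and 8.26% of all genes passed and 3.91% and 2.75% were lower, beside 7.26% and 5.51% higher. With the correction 7.17% and 4.28% were lower and 7.23% and 5.41% higher. With it 2 members fell in BAP1-AID, as Mest no longer passed, and 4 in UTX-AID. In each arm of BAP1-AID alone 2 members fell, again without Mest, and 1156 (−IAA) and 1023 (+IAA) of all genes passed in place of 1754. At 3 h some calls rested on single libraries. Mest in BAP1-AID no longer passed without −IAA replicate 2 at 0 h or without any 1 of the +IAA libraries at 0 h or 3 h (edgeR adjusted p up to 0.161). In UTX-AID the same held for Peg3 without +IAA replicate 1 at 0 h or replicate 2 at 3 h (up to 0.0566) and for Peg10 without +IAA replicate 2 at 0 h or replicate 1 at 3 h (up to 0.0613). The 3 h and 6 h contrasts share their 0 h libraries.

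Meg3, a long noncoding RNA with growth-suppressing activity in cell lines, changed most. In BAP1-AID it had 283, 245, 261 and 261 CPM at 0 h (−IAA replicates 1 and 2, then +IAA replicates 1 and 2), 203, 193, 186 and 191 at 3 h and 129, 118, 129 and 126 at 6 h. In UTX-AID it had 262, 221, 163 and 156 CPM at 0 h, 207, 167, 138 and 118 at 3 h and 138, 106, 89.2 and 70.0 at 6 h. The 0 h and 6 h libraries did not overlap in either clone. In BAP1-AID the fall was −0.42 ± 0.0529 (3 h) and −1.04 ± 0.0534 (6 h) on the log2 scale (SE; edgeR adjusted p = 0.000164 and 3.24e-08). In UTX-AID it was −0.32 ± 0.101 (SE), which did not pass (edgeR adjusted p = 0.0642), and −0.97 ± 0.102 at 6 h (SE; edgeR adjusted p = 5.27e-06). The 3 h value of Meg3 did pass with the replicate number as a block (edgeR adjusted p = 0.000116), with the GC and length correction (0.0178), without a filter on low counts (0.00415) and with all 24 libraries in 1 fit (0.0141), but not by DESeq2 (0.184). Meg3 was the 1 member called at 6 h in BAP1-AID, where 5.12% of all genes were called, and 0 members were called in UTX-AID, against 2.61%. Meg3 lies at the 2-fold limit in both clones, and without replicate 1 of −IAA BAP1-AID at 0 h, 0 members were called in BAP1-AID. At 3 h, 0 members were called in either clone, against 2.93% and 1.76% of all genes, and 4 members in each clone had an unadjusted p under 0.05. The difference between the clones in the 6 h response of Meg3 was −0.069 (95% interval −0.33 to 0.19).

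Rian, the host transcript of small nucleolar RNAs that follows Meg3 on the same strand, also fell. In BAP1-AID it had 399, 384, 446 and 440 CPM at 0 h, 341, 365, 407 and 414 at 3 h and 291, 283, 316 and 325 at 6 h, in the same order of libraries. In UTX-AID it had 420, 373, 295 and 298 CPM at 0 h, 367, 334, 291 and 275 at 3 h and 279, 257, 218 and 213 at 6 h. At 6 h all libraries were below those of 0 h in each clone. On the log2 scale the 6 h change was −0.43 ± 0.0405 for BAP1-AID and −0.49 ± 0.0519 for UTX-AID (SE; edgeR adjusted p = 6.67e-06 and 5.95e-06), and at 3 h neither −0.11 nor −0.10 passed (edgeR adjusted p = 0.136 and 0.310).

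The ratio of Meg3 counts to Rian counts within a library needs no scaling between libraries. It was 0.584 to 0.709 at 0 h and 0.387 to 0.444 at 6 h in BAP1-AID, and 0.525 to 0.625 at 0 h and 0.329 to 0.495 at 6 h in UTX-AID. The ranges did not overlap in either clone. The mean log2 ratio at 6 h minus that at 0 h was −0.60 (BAP1-AID) and −0.49 (UTX-AID) (two-sided exact permutation test, 4 against 4, p = 0.0286 in each clone, the smallest this design allows). Adjusted over the 6 comparisons of this ratio, p was 0.0857 in each. This ratio was chosen after the values were seen. Mirg and Rtl1 of the same domain fell too after 6 h. The log2 fold change of Mirg was −0.89 ± 0.0823 for BAP1-AID and −0.72 ± 0.152 for UTX-AID (SE), and that of Rtl1 was −0.90 ± 0.124 and −1.66 ± 0.186 (SE).

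**Figure D3:**
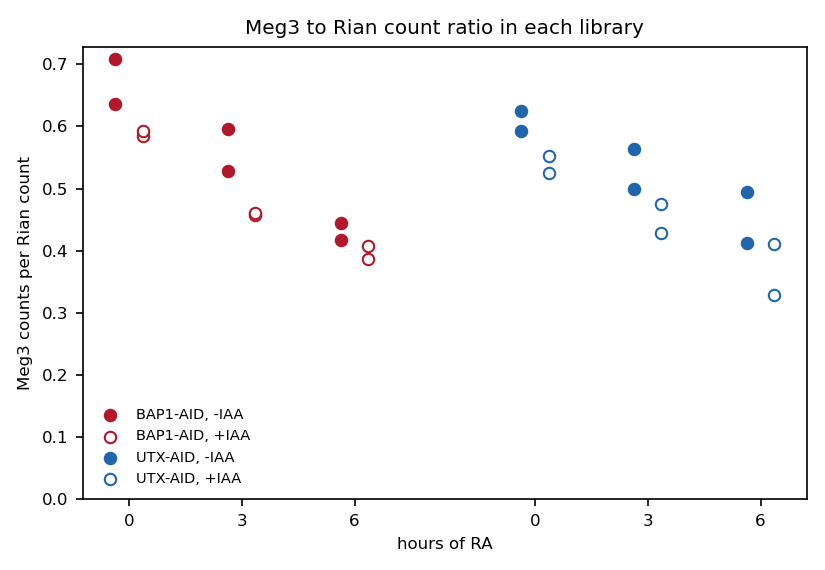
Number of Meg3 counts per Rian count (y axis, from 0) in each library against hours of RA (x axis), with BAP1-AID in red on the left, UTX-AID in blue on the right, filled points without IAA and open points with IAA. In BAP1-AID the ratio moves from 0.584 to 0.709 at 0 h to 0.387 to 0.444 at 6 h, and in UTX-AID from 0.525 to 0.625 to 0.329 to 0.495.

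Mest had 186, 207, 235 and 236 CPM at 0 h and 147, 146, 163 and 162 CPM at 6 h in BAP1-AID, and 271, 310, 306 and 317 CPM at 0 h and 201, 203, 203 and 211 CPM at 6 h in UTX-AID. The libraries of 0 h and 6 h did not overlap, and the log2 fold change was −0.45 ± 0.0744 and −0.53 ± 0.0441 (SE; edgeR adjusted p = 0.000688 and 3.70e-07). Peg3 fell early, with −0.35 ± 0.0517 (3 h) and −0.24 ± 0.0516 (6 h) for BAP1-AID and −0.22 ± 0.0487 at both times for UTX-AID (SE; all 4 passed). Snrpn fell in BAP1-AID at 6 h (−0.25 ± 0.0495, SE; edgeR adjusted p = 0.00285). In UTX-AID its log2 fold change of −0.13 did not pass (edgeR adjusted p = 0.312), and the difference between the clones did not pass either (−0.11, 95% interval −0.32 to 0.095). Counted by libraries, 3 members in BAP1-AID and 5 in UTX-AID were lower at 6 h in all 4 libraries than in any 0 h library, against 9.69% and 8.14% of all genes.

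Peg10 was the member whose RA response differed between the clones. In BAP1-AID it had 182, 204, 207 and 208 CPM at 0 h and 240, 241, 237 and 229 CPM at 6 h. In UTX-AID it had 375, 404, 362 and 395 CPM at 0 h and 329, 327, 292 and 308 CPM at 6 h. The 6 h libraries were all higher in 1 clone and all lower in the other. Its log2 fold change was 0.27 ± 0.102 in BAP1-AID, which did not pass (SE; edgeR adjusted p = 0.0822, against 0.0399 by DESeq2, 0.0422 with all 24 libraries in 1 fit and 0.0217 with the GC and length correction, or 0.0171 with that and the replicate block), and −0.27 ± 0.0481 in UTX-AID (SE; edgeR adjusted p = 0.00108). The difference between these responses was 0.53 (95% interval 0.28 to 0.78; edgeR adjusted p = 0.0142), where 2.71% of all genes passed, and without replicate 1 of −IAA BAP1-AID at 0 h it was 0.46 and missed the threshold (edgeR adjusted p = 0.0523). The other 9 members did not pass, with differences between −1.05 (Igf2) and 0.32.

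H19, Igf2, Dlk1 and Cdkn1c did not pass at 3 h or 6 h of RA in either clone. The 95% intervals at 6 h were −0.14 to 0.45 for H19 and −0.29 to 0.29 for Cdkn1c in BAP1-AID. For Igf2 they were −1.73 to 0.0088 in BAP1-AID and −0.92 to 1.28 in UTX-AID, so changes near 2-fold lie within the error of this gene at 8 to 66 counts. Without replicate 1 of +IAA BAP1-AID at 6 h, Igf2 passed and was called, at −1.43 (edgeR adjusted p = 0.0309) in place of −0.86. Of 36 other imprinted genes tested at 6 h, 5 were higher and 6 lower in BAP1-AID, and 2 higher and 5 lower in UTX-AID. Among domain neighbours, Magel2 fell after 6 h, with −1.88 ± 0.153 (BAP1-AID) and −1.39 ± 0.234 (UTX-AID, SE), and Calcr with −1.69 ± 0.188 (BAP1-AID) and −1.68 ± 0.466 (UTX-AID, SE). In UTX-AID, Calcr had 57, 57, 43 and 54 counts at 0 h and 11, 26, 12 and 16 at 6 h, without overlap (edgeR adjusted p = 0.0256), and it missed the threshold in 6 of 12 fits with 1 library left out (up to 0.0910). Ascl2 fell in BAP1-AID (−1.64 ± 0.392, SE; edgeR adjusted p = 0.00892). Higher at 6 h, averaged over both arms, were Kcnq1ot1 by 0.57 ± 0.0903 and Ube3a by 0.45 ± 0.0529 in BAP1-AID and Peg12 by 0.87 ± 0.209 in UTX-AID (SE). Mean CPM of Kcnq1ot1 in BAP1-AID went from 6.20 at 0 h to 7.03 at 6 h without IAA and from 9.88 to 18.5 with IAA. Most of its rise was thus in the +IAA arm, but the change of this response with IAA did not pass (0.72 ± 0.180, SE; edgeR adjusted p = 0.176). Ube3a was at 0.15 after the GC and length correction and still passed. Ppp1r9a passed in BAP1-AID at 0.22 ± 0.0704 (SE; edgeR adjusted p = 0.0402) but not with the correction (0.15, edgeR adjusted p = 0.202). Zim3, a zinc finger gene of the Peg3 domain, passed in BAP1-AID at 6 h on counts of 27, 11, 26 and 15 against 0, 0, 0 and 7 at 0 h (edgeR adjusted p = 0.0271, and up to 0.0948 with 1 library left out), and in UTX-AID it was at 0 in 9 of 12 libraries.

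**Figure D4:**
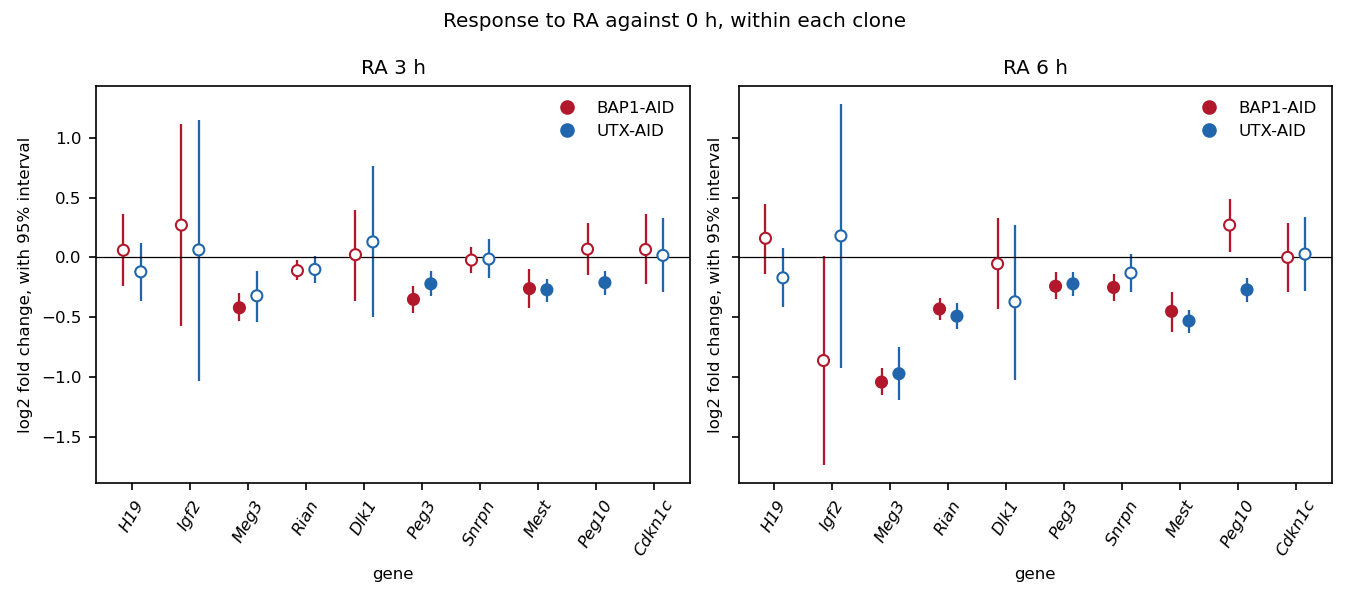
Log2 fold change against 0 h (y axes) with its 95% interval after 3 h (left) and 6 h (right) of RA for each imprinted gene (x axes), with BAP1-AID in red and UTX-AID in blue. Filled points passed at an adjusted p under 0.05. Meg3 lies lowest of the filled points at 6 h, at −1.04 and −0.97, and Peg10 lies on opposite sides of 0.

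Averaged over 0, 3, and 6 h of RA, Meg3 and Rian were lower with IAA in UTX-AID, and the other 8 members did not pass. In BAP1-AID, Rian, Peg3 and Mest were higher and Snrpn was lower with IAA, and the other 6 did not pass. These 2 of 10 and 4 of 10 compare with 2.62% of all genes in UTX-AID and 36.1% in BAP1-AID. No member was called, where 0.135% and 1.51% of all genes were. An unadjusted p under 0.05 was reached by 7 members in UTX-AID, beside 2543 of 16268 genes, and by 4 in BAP1-AID, beside 6978 of 15695. The median log2 fold change in UTX-AID was −0.18 over the members and −0.0022 over all genes. Igf2 in UTX-AID ranged from 0.575 to 1.00 CPM without and from 0.151 to 0.639 CPM with IAA, at 8 to 48 counts, and did not pass.

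In UTX-AID, Meg3 ranged from 106 to 262 CPM (median 187) in the 6 −IAA libraries and from 70.0 to 163 CPM (median 128) in the 6 +IAA libraries. These ranges overlapped, and at each time of RA both +IAA libraries were below both −IAA libraries, as the values above show. The log2 fold change was −0.59 ± 0.0827 (SE; edgeR adjusted p = 0.00149), and it was −0.60 at 0 h, −0.55 at 3 h and −0.61 at 6 h. Rian ranged from 257 to 420 CPM (median 351) without and from 213 to 298 CPM (median 283) with IAA, again lower in both +IAA libraries at each time. Its log2 fold change was −0.35 ± 0.0423 (SE; edgeR adjusted p = 0.000493), with −0.42, −0.31 and −0.31 at the 3 times. At a single time, 2 libraries against 2, neither gene passed (edgeR adjusted p between 0.0573 and 0.303). Another pair of transcripts of the domain passed in the same direction, Mirg with −0.57 ± 0.124 (SE; edgeR adjusted p = 0.0250) and Rtl1 with −0.63 ± 0.150 (SE; edgeR adjusted p = 0.0355), while Dlk1 did not (0.084, 95% interval −0.43 to 0.60). With 1 library left out at a time, Mirg still passed in 8 of 12 fits and Rtl1 in 4 of 12, with an edgeR adjusted p of up to 0.0779 and 0.114. Mirg was lower with IAA in BAP1-AID too (−0.34 ± 0.0669, SE; edgeR adjusted p = 0.00180), and its IAA effect did not pass as different between the clones (0.25, edgeR adjusted p = 0.245). Rian, Rtl1 and Mirg are transcribed from 1 region, so these counts may not be independent. Phlda2, of the Kcnq1 domain, was lower with IAA at 5.63 to 6.92 against 7.54 to 10.6 CPM (−0.51 ± 0.0946, SE; edgeR adjusted p = 0.0100), without overlap. In BAP1-AID, Phlda2 was also lower with IAA (−0.42 ± 0.109, SE; edgeR adjusted p = 0.00990), with a difference between the clones of 0.11 that did not pass (edgeR adjusted p = 0.667). In UTX-AID the neural markers summed to 65.7 to 78.2 CPM with IAA and 72.4 to 97.2 CPM without, and the fibroblast markers to 4.29 to 5.81 and 5.14 to 8.73 CPM. Their part in these results was not tested.

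In BAP1-AID, Peg3 ranged from 110 to 152 CPM (median 124) without and from 144 to 201 CPM (median 170) with IAA. It was higher by 0.40 ± 0.0422 (SE; edgeR adjusted p = 1.81e-05). Rian was higher by 0.17 ± 0.0330, Mest was higher by 0.23 ± 0.0606 and Snrpn was lower at −0.22 ± 0.0404 on the log2 scale (SE; edgeR adjusted p = 0.00181, 0.0114 and 0.00104). Both +IAA libraries of Rian were above both −IAA libraries at each time. Meg3 did not pass, at −0.031 (95% interval −0.13 to 0.063). Across all genes Spearman's rho of the IAA effect with GC content was −0.472 here, against 0.0227 in the other clone. With the GC and length correction Snrpn was at −0.60, Mest at 0.41, Peg3 at 0.22 and Rian at 0.085, all still passing, and Meg3 passed at 0.19 (edgeR adjusted p = 0.00170). In UTX-AID the correction left Meg3 at −0.59 and Rian at −0.36.

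**Figure D5:**
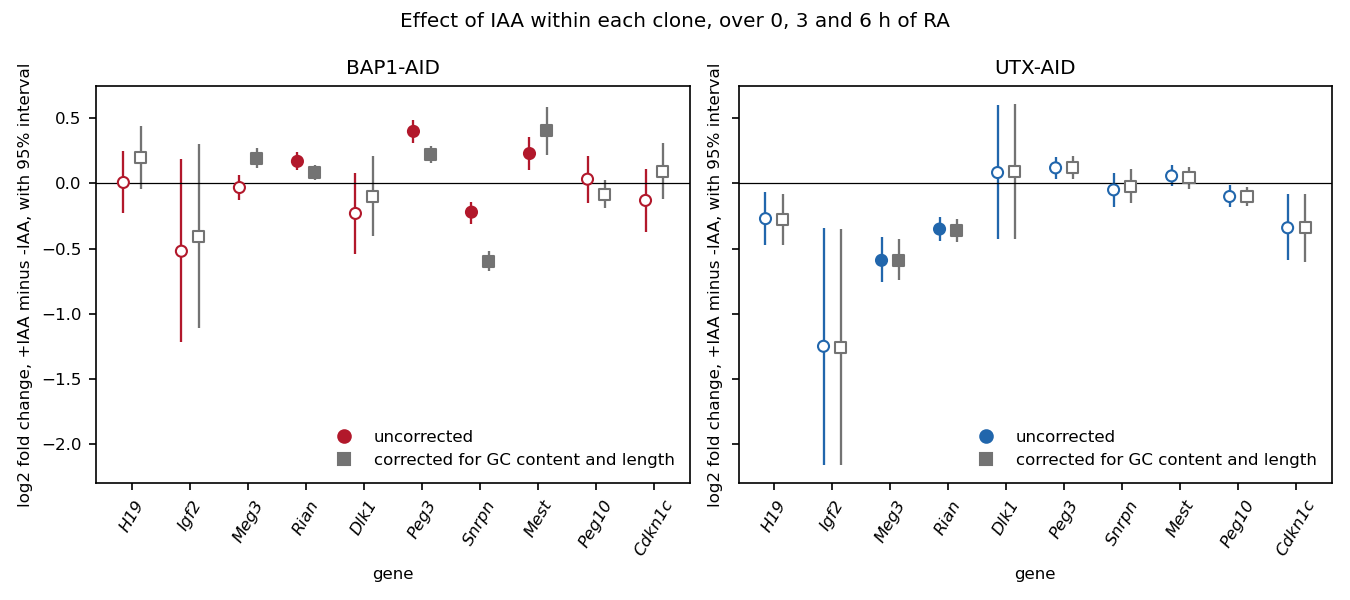
Log2 fold change of +IAA over −IAA (y axes), averaged over 0, 3 and 6 h of RA, with its 95% interval for each imprinted gene (x axes) in BAP1-AID (left) and UTX-AID (right), without (coloured circles) and with (grey squares) a correction for GC content and length. Filled symbols passed at an adjusted p under 0.05. In UTX-AID the filled symbols are Meg3 and Rian, at −0.59 and −0.35 before the correction, and in BAP1-AID the correction moves Snrpn from −0.22 to −0.60.

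The IAA effect differed between the clones for 3 of the 10 genes, where 25.9% of all genes passed. The difference of BAP1-AID minus UTX-AID was 0.57 ± 0.102 for Meg3, 0.53 ± 0.0550 for Rian and 0.30 ± 0.0605 for Peg3 (SE; edgeR adjusted p = 0.000177, 2.12e-07 and 0.000620). With the GC and length correction Meg3 (0.79) and Rian (0.45) still passed and Peg3 did not (0.10, edgeR adjusted p = 0.195), while Snrpn (−0.58), Mest (0.37) and H19 (0.48) then passed. IAA did not detectably alter the 6 h RA response of the members. By edgeR 0 of 10 passed in BAP1-AID, likewise 0 of 10 in UTX-AID, with 1 and 0 at an unadjusted p under 0.05, and DESeq2 gave 0 and 0, with no adjusted p for 3 members in BAP1-AID. Of all genes 0.153% passed in BAP1-AID and 0% in UTX-AID, where 558 genes had an unadjusted p under 0.05 and DESeq2 passed 1 gene. For Meg3 the change of the response was 0.051 in BAP1-AID (95% interval −0.18 to 0.28) and −0.0033 in UTX-AID (95% interval −0.43 to 0.43).

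Over the 24 libraries, the gene whose log2 CPM most resembled Meg3 was Rian (Pearson r = 0.934 among 12330 genes with a mean of at least 1 CPM), followed by Sfrp1 (0.928), a secreted Wnt antagonist, and AF357359 (0.919). For Rian they were AF357359 (0.936), Mcf2 (0.936), a guanine nucleotide exchange factor, and Meg3 (0.934). Within a clone, r of Meg3 with Rian was 0.869 (BAP1-AID) and 0.981 (UTX-AID), each over 12 libraries. The genes most like Snrpn were Rcc2 (0.994), Sart3 (0.992) and Grwd1 (0.992), and those most like Peg10 were Rap1b (0.954), Abcd3 (0.948) and Bms1 (0.945). For Mest they were Trim36 (0.974), Zfp459 (0.954) and Emb (0.929), for Dlk1 Agpat4 (0.921), Syndig1 (0.910) and Camk2b (0.899) and for Peg3 Bach1 (0.892), Jkamp (0.874) and Nfx1 (0.872). H19 (Gsta3, 0.793) and Cdkn1c (Rps28, 0.860) had looser neighbours, and Igf2 was below 1 CPM and was not compared. The libraries share 2 clones and their treatments, and these values are a description only.

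A list of 43 further imprinted genes in the table gave the wider picture. Of the 37 tested between the clones, 17 were higher and 12 lower in BAP1-AID and 8 did not pass, with 5 called higher and 6 lower and a median log2 fold change of 0.19, beside 74.9% of all genes that passed, 26.5% called and a median of −0.067. Outside the domains described above, Gnas, the stimulatory G protein subunit, was called higher at 145 to 172 against 67.1 to 80.2 CPM (log2 fold change 1.13, and 0.75 after the GC and length correction), and Nap1l5 was called lower at 0.852 to 2.51 against 3.55 to 6.29 CPM (−1.63). Split by the expressed copy and counting the members too, 12 of 21 tested maternally expressed genes were higher and 4 lower in BAP1-AID, and 11 of 26 paternally expressed genes were higher and 11 lower, beside 36.3% and 38.6% of all genes.

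Genes that write, erase or maintain methylation were read against the same background, in which 74.9% of all genes passed between the clones, 36.3% higher and 38.6% lower. All 10 genes of a maintenance list passed, 6 higher and 4 lower in BAP1-AID, and all 10 methylation writers and erasers passed, 7 higher and 3 lower. Dnmt3b, a de novo methyltransferase, ranged from 813 to 1426 CPM in BAP1-AID and from 270 to 555 CPM in UTX-AID (log2 fold change 1.45), and Tet3, a dioxygenase that oxidizes methylcytosine, was higher at 33.1 to 57.5 against 16.5 to 26.5 CPM (1.02). Tet1 was lower, at 250 to 394 against 661 to 866 CPM (−1.24), as were Tet2 (−1.55) and Atrx, a chromatin remodeller, at 48.3 to 162 against 366 to 459 CPM (−2.39). With the GC and length correction these were 1.07 for Dnmt3b, 0.52 for Tet3, −0.78 for Tet1, −1.66 for Tet2 and −1.42 for Atrx. No value here links a level of these genes to an imprinted gene.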

How the data were processed

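RNA-seq of poly(A) RNA from 24 mouse ESC libraries was analysed, 2 replicates in each of 12 groups defined by clone, IAA and hours of RA. The authors aligned reads with HISAT2 2.2.1 to mm39 and deposited whole-number estimated counts per gene from StringTie 2.2.1; Samtools 1.19 and deepTools 3.5.4 are also named in the submitters' processing notes. The annotation and strand setting are not given in the sources used here. The methods name DESeq2 as the authors' test.

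The estimated counts were tested with edgeR 4.0.16 (quasi-likelihood, TMM scaling, filterByExpr set to 10 counts and 15 in total) in R 4.3.3, with 1 fit per clone for RA and IAA and 1 fit of all libraries for comparisons of clones. P-values were adjusted over all genes tested (Benjamini-Hochberg). CPM are TMM-scaled, and scripts used Python 3.11.15. Coordinates are from GENCODE vM39 on mm39, and promoter windows from RefSeq on GRCm38.p6. The 10 genes, the lists of other imprinted genes, regulators and markers, and the tests were chosen with earlier results of these data known. The named genes were the 10 members, all listed genes of their domains, the 3 genes most correlated with each member, and Bap1 and Kdm6a. Called genes with the lowest adjusted p between the clones (at most 3 in each direction) were added from the other imprinted genes and from the regulators. Kcnq1 is given by counts only. The fits were tested on simulated counts. Alternatives were RLE scaling, no filter on low counts, DESeq2 1.42.0, a replicate block, a correction of each library for transcript GC and length (splines with 5 degrees of freedom), single arms or times, and leaving out each library in turn. Same-numbered replicates had correlations of their deviations between −0.0224 and 0.0742 across groups, so over all genes the numbers showed no common pairing. A shared deviation in single genes is not excluded. In UTX-AID, Meg3 was higher in replicate 1 than in replicate 2 in every group. For IAA in that clone the replicate block raised the genes that passed from 427 to 813. The 2 libraries of a group shared identical counts for 1.62% to 2.14% of detected genes, and none was merged. Precision is limited by counting error and by 2 libraries per group. Limits from 3 counts cover counting error only.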

Additional observations from a re-analysis of the deposited data

Results flagged for a closer look

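The response to 6 h of RA differed between the clones for Peg10, by 0.53 (edgeR adjusted p = 0.0142), with log2 fold changes of 0.27 in BAP1-AID and −0.27 in UTX-AID. Peg10 was the 1 member of 10 that passed, where 2.71% of all genes did. Its change in BAP1-AID did not pass by itself (edgeR adjusted p = 0.0822). With 1 library left out the difference between the clones was 0.46 to 0.56. With 3 h in place of 6 h, 0 members passed, beside 127 in place of 455 of all genes.

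An interaction test, BAP1-AID minus UTX-AID, passed for the IAA effect on 3 of the 10 genes and on 4 of their domain neighbours. Of all genes 25.9% passed it, and of the 37 other imprinted genes tested in any domain 10 did, 8 higher and 2 lower. The share of the members was thus near that of all genes. By domain, members included, 3 of 6 tested genes passed in Dlk1-Dio3, 1 of 6 in Kcnq1 and 1 of 5 in Peg10. In Peg3 1 of 4 passed, in Snrpn 1 of 7 and in H19-Igf2 and Mest 0 of 2 each. Across all genes Spearman's rho of this difference with GC content was −0.373. For Meg3 the difference was 0.57 ± 0.102 (BAP1-AID −0.031, UTX-AID −0.59), for Rian 0.53 ± 0.0550 (0.17 and −0.35) and for Peg3 0.30 ± 0.0605 (0.40 and 0.12). Among neighbours it was 0.85 ± 0.187 for Rtl1 (0.20 and −0.63), 0.92 ± 0.110 for Kcnq1ot1 (0.77 and −0.13), 0.98 ± 0.0734 for Ube3a (0.87 and −0.088) and 0.44 ± 0.110 for Ppp1r9a (0.51 and 0.091), with errors given as SE and edgeR adjusted p between 4.32e-09 and 0.00440. After the GC and length correction the difference was 0.26 for Ube3a, 1.11 for Kcnq1ot1 and 0.92 for Rtl1, which still passed, while Ppp1r9a (0.17, edgeR adjusted p = 0.294) and Peg3 (0.10, edgeR adjusted p = 0.195) did not.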

How the results depend on the processing

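Of 35 results in which a member passed, taken under each alternative, 841 of 886 values kept their direction and stayed past the threshold, 44 kept the direction only and 1 reversed: the clone difference of Rian was −0.018 in −IAA ESCs at 0 h. Most of these 886 values come from fits with 1 library left out, which share nearly all their data with the main fit. The total therefore says little about other processing. Under the other alternatives, for IAA in UTX-AID, Meg3 and Rian each stayed past the threshold in 7 of 10. The number of members called between the clones was 1 in place of 2 in the +IAA libraries alone and with the GC and length correction, with or without the replicate block (Dlk1 was lost), and 3, with Peg10, in −IAA ESCs at 0 h. Over all genes 4195 (+IAA), 3733 (correction), 3738 (correction and block) and 3510 (−IAA at 0 h) were called in place of 4463. The number of members that passed was 5 in place of 9 in −IAA ESCs at 0 h, 6 in the −IAA arm alone and 8 in the +IAA arm alone. Over all genes 8848, 11317 and 11525 passed in place of 12602. After 3 h of RA in UTX-AID 1 member in place of 3 passed in each arm alone, beside 788 (−IAA) and 580 (+IAA) in place of 1343 of all genes. After 6 h 3 in place of 5 passed in the +IAA arm of BAP1-AID and 3 in place of 5 in the −IAA arm of UTX-AID, and the correction brought the number called in UTX-AID from 0 to 1 (Meg3). Over all genes 2413 in place of 3773 and 1123 in place of 2023 passed in these arms. With the correction 426 in place of 425 genes were called in UTX-AID. For IAA at a single time 2 in place of 4 passed in BAP1-AID and 0 in place of 2 in UTX-AID. Over all genes 1956 to 2896 in place of 5659 passed in BAP1-AID and 5 to 43 in place of 427 in UTX-AID. The clone difference in the RA response was passed by 0 members at 3 h in place of 1 at 6 h, and that in the IAA effect by 5 in place of 3 with the correction. All genes that passed numbered 127 in place of 455 and 3198 in place of 4350. Single arms and times hold fewer libraries; the cause of the other changes was not tested.

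With 1 library left out, the number called after 6 h of RA was 0 to 2 in BAP1-AID (2 where Igf2 was called beside Meg3) and 0 to 1 in UTX-AID, reaching 1 without −IAA replicate 2 at 0 h, −IAA replicate 1 at 6 h or +IAA replicate 1 at 6 h. The clone difference in the RA response was passed by 0 to 1 members, and that in the IAA effect by 3 to 5, reaching 5 without −IAA replicate 2 of BAP1-AID at 3 h.

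The replicate block left 2 members called and 9 passing between the clones and changed no call of a member that had passed. It added Meg3 after 3 h of RA in UTX-AID (4 members in place of 3) and brought the clone difference in the IAA effect to 4 members in place of 3. For IAA in UTX-AID it raised the number of all genes that passed from 427 to 813, and DESeq2 gave 717. DESeq2 gave 741 genes in place of 455 for the clone difference in the RA response. Genes called for IAA in BAP1-AID numbered 237, with 359 by DESeq2 and 155 after the correction. Igf2, at 8 to 66 counts, is limited by depth.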
